A study of Mus musculus with 24 samples.

Results

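The experiment compared cultures of RAW264.7, an established line of mouse macrophages, that were given a hydrogel with cultures that were not. All 6 RNA-seq libraries whose titles place them in this comparison were used, 3 with the gel and 3 without, of 24 samples in the series; the other samples are wounds of diabetic mice and do not enter here. The control libraries carry LPS (lipopolysaccharide, the cell wall component of Gram-negative bacteria) as their treatment. The hydrogel libraries carry the gel as their treatment and do not name LPS, whereas the design text describes LPS-induced macrophages for both arms. The labels therefore do not settle whether the cells with the gel received LPS, and if they did not, the gel and the lack of LPS cannot be told apart. The gel's name also differs by library, with the endings Hyd3, Hyd4 and Hyd5 for replicates 1 to 3 of Fmoc-KYF-AgNCs-3S1C, while the design text gives Hyd2. The labels do not settle whether these are the same gel. If they are not, gel and replicate cannot be told apart. From the series title, the gel joins a peptide, silver nanoclusters and a hydrogenase that makes hydrogen under light. None of these 6 libraries was labelled as cells with neither LPS nor gel, as cells under light alone or as a gel lacking the enzyme. Nothing in the labels says that the replicates were separate cultures, so p-values cover only the variation among the libraries, and that may be technical in origin.

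Macrophages sense LPS through TLR4 with its partners CD14 and MD-2. One branch of the signal, through MyD88, leads to NF-kappaB and to cytokine and chemokine genes such as Tnf, Il6 and Ccl3. Another branch, through TRIF, leads to interferon-beta, which acts back on the cells through its receptor and transcription factors such as STAT2 and IRF9. These act on interferon-stimulated response elements near the start of antiviral genes such as the Ifit family, Rsad2 and the guanylate-binding proteins.

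The deposited counts came to 17932839 to 23955760 read pairs assigned to genes per library. The 3 control libraries were close to each other, with a median chi-square per gene between pairs of 0.5 to 0.609 where counting noise alone gives 0.455. The biological coefficient of variation was 1.67% among controls and 10.1% among hydrogel libraries. Hydrogel libraries 1 and 3 were the farthest apart of that group, with a median chi-square of 3.95, against 1.82 and 1.6 for the other pairs. The first principal component held 86% of the variance and separated the groups, and the second, with 6.4%, ran from hydrogel 1 at -22.52 through hydrogel 2 at 4.29 to hydrogel 3 at 20.1. All 16 macrophage markers were present, with a summed level of 10530 to 10560 CPM (counts scaled to library size) in the controls and 12490 to 12980 CPM with the gel. Marker lists of fibroblasts, mast cells, neutrophils and epithelium each summed to under 1 CPM in every library. The B cell list summed to 22.16 to 24.1 CPM in the controls and 39.63 to 46.03 CPM with the gel, and the T and NK cell list to 13.81 to 15.12 CPM and 18.2 to 21.11 CPM. The dendritic cell list summed to 8.854 to 10.09 CPM in the controls and 6.11 to 12.32 CPM with the gel, and the endothelial list to 3.424 to 4.104 CPM and 2.027 to 2.634 CPM. The part of these lists in the results was not tested. The 32 mitochondrially encoded symbols were at 0 in every library. The list of nuclear RNAs and other indicators of RNA quality summed to 1086 to 1202 CPM in the controls and 592.8 to 815.6 CPM with the gel. Of its 6 tested members, 2 rose and 2 fell. Over all tested genes, 34.7% rose and 37.8% fell, so nothing is read from these counts. With the exon length and GC offset described below, 5 rose and 1 fell. The median log2 difference was -0.09 without that offset and 0.63 with it. Malat1, the most abundant, stood at 691, 804.6 and 712 CPM in the controls and 302, 219.3 and 434.1 CPM with the gel. Snhg1 and Snhg12 were higher with the gel. The part of this list in the results was not tested.

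**Figure D1:**
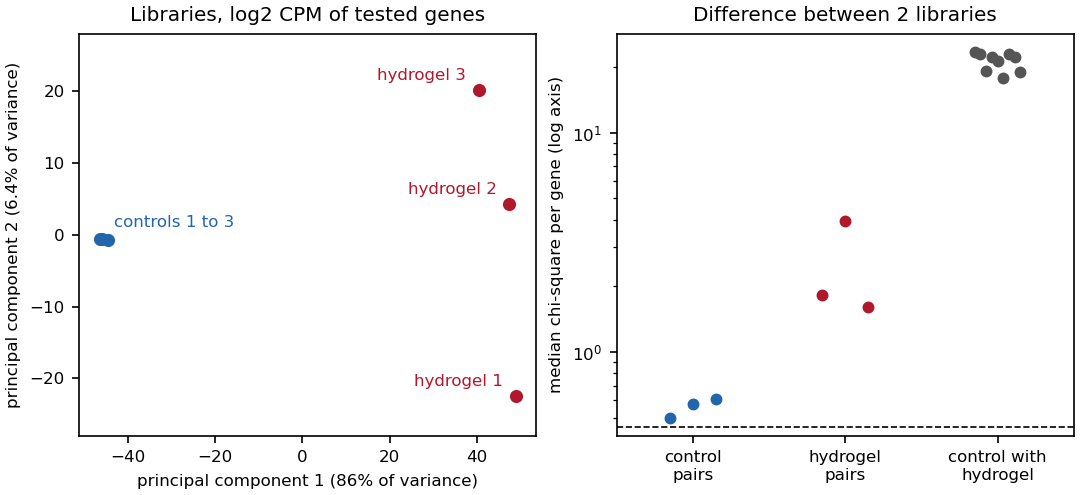
Left, the 6 libraries on the first 2 principal components of log2 CPM. Right, the median chi-square per gene between each pair of libraries on a log axis, with the value expected from counting noise alone (0.455) as a dashed line; pairs of controls lie just above the line, pairs of hydrogel libraries at 1.6 to 3.95 and pairs across the groups at 17.8 to 23.3.

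Most expressed genes differed between the arms. Of 12972 genes with enough counts to test, 9409 (72.5%) passed edgeR's quasi-likelihood test at an adjusted p below 0.05, with 4505 (34.7%) higher and 4904 (37.8%) lower with the gel. Many of the differences were small, and 3463 of these genes differed by less than 1.5-fold. Of all tested genes, 2719 (21.0%) passed and differed by at least 2-fold, with 1002 (7.72%) higher and 1717 (13.2%) lower. The larger changes were mostly losses, with 198 genes lower and 31 higher by 4-fold or more. The median log2 difference over all tested genes was -0.04. The arms did not overlap, in either direction, for 9850 tested genes (75.9%), so non-overlap alone does not set a gene apart. Without hydrogel 3, 1393 genes were higher by at least 2-fold, and without hydrogel 1, 883 were. Among the 1002 genes higher by at least 2-fold, hydrogel 1 was the highest of the 3 gel libraries for 688 and hydrogel 3 the lowest for 746.

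**Figure D2:**
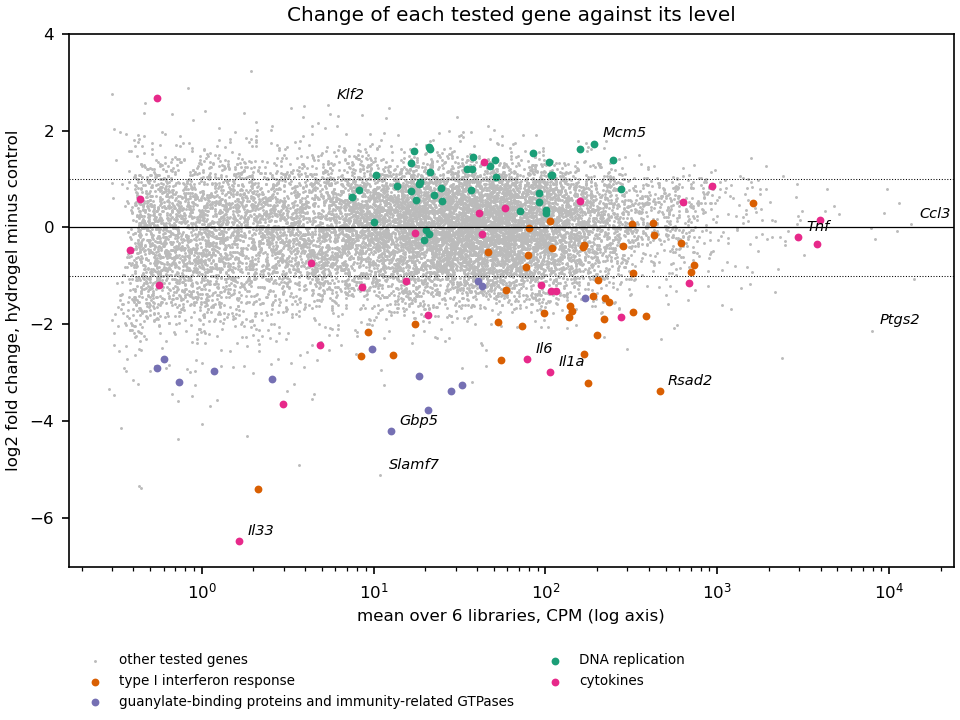
Log2 fold change (hydrogel minus control) of tested genes against their mean CPM over the 6 libraries (log axis), with dotted lines at 2-fold. The vertical axis ends above the lowest value, -7.79, so not every tested gene is shown. Interferon response genes and guanylate-binding proteins lie mostly below the lower line at all levels, most DNA replication genes lie above 0, and Tnf and Ccl3 lie near 0 at high levels.

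The differences followed the length and base composition of the genes. The median log2 difference fell from 0.33 in the quintile of genes with the shortest exons to -0.43 in the longest quintile, and rose from -0.67 in the quintile with the lowest GC content of the transcript to 0.41 in the highest. The order was present in each of the 3 hydrogel libraries. Across genes, which are not independent replicates, Spearman's rho of the difference was 0.477 with GC and -0.295 with exon length. An alternative fit with an offset for both properties, chosen after seeing the data, called 9023 genes, and 1805 of those at 2-fold or more. Of the calls without the offset, 79.5% were kept in the same direction, and 212 genes were called in the opposite one. Of the 2719 calls at 2-fold or more without the offset, only 1488 stayed at 2-fold or more in the same direction. Whether the trend arose in the cells or in the libraries was not tested. Values or calls with this offset are given below for some named genes and list medians. These are ones where it ends or makes a call, turns the direction or moves the value by over 1.5 times. Others moved too. The median of glycolysis genes was 0.40 without the offset and 0.20 with it, and that of metallothionein and metal transport genes -0.05 and 0.06.

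**Figure D3:**
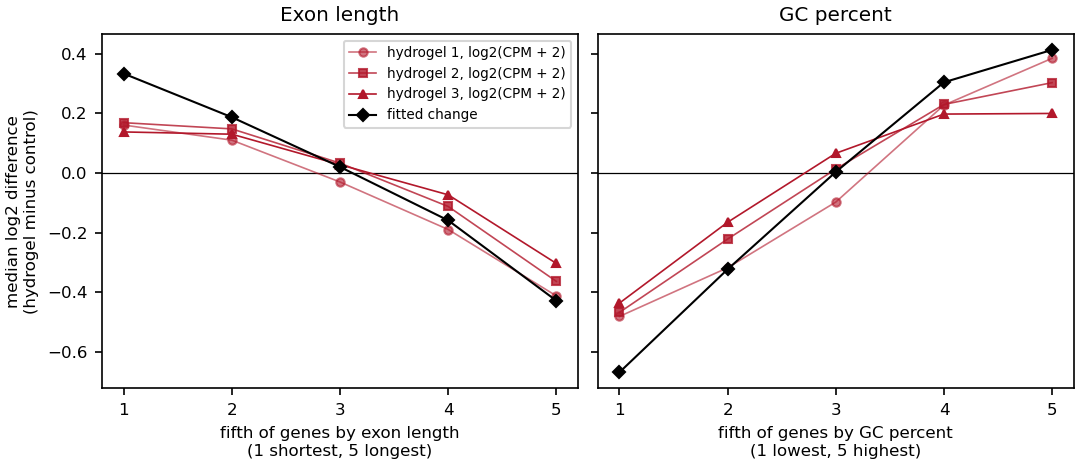
Median log2 difference from control in each quintile of the tested genes by exon length (left) and by GC percent of the longest transcript (right), for the fitted change and for each hydrogel library against the control mean on the log2(CPM + 2) scale. All 3 libraries go from above 0 to below 0 with length, and from below 0 to above 0 with GC.

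Interferon response genes were mostly lower in the gel arm. Of 41 tested genes of this list, 36 fell and 1 rose, against 37.8% lower and 34.7% higher over all tested genes. Their median log2 difference was -1.45, against -0.04 over all tested genes, and -1.27 with the length and GC offset. The promoter windows of Ifit1, Rsad2 and the guanylate-binding protein genes Gbp2 and Gbp5 are shown here. A word of the interferon-stimulated response element recurred in these groups, and all 4 windows hold it. The runs are the 200 bases before the start site, 5′ to 3′ on the gene's strand, from RefSeq on GRCm38.p6, with matches on either strand in capitals to a 10-base word, TTTC and TTTC parted by any 2 bases.
Ifit1, chr19:34640689-34640888, plus strand: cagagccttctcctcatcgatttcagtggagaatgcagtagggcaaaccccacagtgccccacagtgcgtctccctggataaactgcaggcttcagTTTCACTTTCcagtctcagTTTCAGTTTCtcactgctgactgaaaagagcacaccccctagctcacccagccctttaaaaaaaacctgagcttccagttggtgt
Rsad2, chr12:26456453-26456652, minus strand: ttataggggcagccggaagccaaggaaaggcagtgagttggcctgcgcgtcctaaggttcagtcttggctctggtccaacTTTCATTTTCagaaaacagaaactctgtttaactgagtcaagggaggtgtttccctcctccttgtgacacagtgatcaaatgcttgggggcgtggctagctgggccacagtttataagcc
Gbp2, chr3:142620463-142620662, plus strand: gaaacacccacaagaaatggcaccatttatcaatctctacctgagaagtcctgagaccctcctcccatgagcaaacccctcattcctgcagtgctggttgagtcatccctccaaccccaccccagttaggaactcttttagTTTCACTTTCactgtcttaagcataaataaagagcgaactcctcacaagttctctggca
Gbp5, chr3:142496734-142496933, plus strand: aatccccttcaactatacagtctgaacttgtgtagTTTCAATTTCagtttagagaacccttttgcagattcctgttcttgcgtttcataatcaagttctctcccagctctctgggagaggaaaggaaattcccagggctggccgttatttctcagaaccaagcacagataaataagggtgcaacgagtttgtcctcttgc
In the RefSeq table, the 300-base window from 250 before to 50 after the start held this word for 3.99% of 27025 symbols and for the same 3.99% of the 9270 tested genes with a window. It was present for 17 of the 30 interferon list genes with a window (56.7%) and for 9 of 9 guanylate-binding protein and immunity-related GTPase genes. Among genes that fell by at least 2-fold the share was 9.07%, and among those that rose by at least 2-fold it was 2.17%. The same contrast was 9.07% against 5.35% for an AP-1 word, TGANTCA, and 4.18% against 2.03% for an amino acid response word, TGATGNAA. It ran the other way for the E2F word, TTTNNCGC (7.56% against 15.6%), and the metal response word TGCNCNC (58.8% against 65.3%). The genes that fell include members of both lists. Whether base composition shapes these shares was not tested. Ifit2, whose fall is given below, has windows at 2 start sites and no match to the interferon word in either.

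Ifit1, which binds viral RNA lacking a host cap, stood at 97.2, 96.1 and 95.2 CPM in the controls and 14.9, 14.3 and 14.3 CPM with the gel. Every gel library was below every control, and it fell by 2.73 on the log2 scale (SE 0.06, edgeR adjusted p 3.6e-09), far outside the spread within either arm. Rsad2, which encodes the antiviral enzyme viperin, was among the most abundant of the list and stood at 851, 845 and 834 CPM in the controls and 70, 80 and 92.1 CPM with the gel, and fell by 3.38 (SE 0.10, edgeR adjusted p 6.3e-09). Ifit2 stood at 321, 331 and 309 CPM in the controls and 38.5, 33.4 and 32.6 CPM with the gel, and fell by 3.20.

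The factors that carry the interferon signal did not move as one. Stat2 stood at 273, 275 and 279 CPM in the controls and 96, 101 and 112 CPM with the gel, and fell by 1.42. Irf7, which amplifies interferon production, stood at 921, 911 and 947 CPM in the controls and 545, 493 and 423 CPM with the gel, and fell by 0.93. Irf9, the DNA-binding partner of STAT2, stood at 99.2, 103 and 101 CPM in the controls and 105, 111 and 116 CPM with the gel, a log2 difference of 0.13 that did not pass (edgeR adjusted p 0.065) but was called higher at 0.12 with the offset. The RNA sensors Ifih1 (MDA5) and Ddx58 (RIG-I) fell, with log2 differences of -1.84 and -1.45. Ifitm3, which restricts viral entry, was the member that rose, from 1317 to 1353 CPM in the controls to 1705 to 1996 CPM with the gel, a log2 difference of 0.50, or 0.18 with the offset.

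The interferon-beta gene itself went the other way. Ifnb1 had 4, 2 and 4 counts in the controls and 17, 18 and 27 with the gel. It rose by 2.68 on the log2 scale (SE 0.34, edgeR adjusted p 4.2e-05) and all gel libraries were above all controls, at a level of about 1 CPM. This gene, and Stat2, Irf7, Irf9, Ifih1, Ddx58 and Ifitm3, were singled out after their values were seen.

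All 14 tested guanylate-binding proteins and immunity-related GTPases fell, each by at least 2-fold, with a median log2 difference of -3.02 (-2.49 with the offset). Over all tested genes, 37.8% fell and 13.2% fell by at least 2-fold. These interferon-induced GTPases attack the membranes around bacteria and parasites inside the cell. Gbp5, which also promotes inflammasome assembly, stood at 25.6, 24.5 and 21.9 CPM in the controls and 0.953, 1.32 and 1.56 CPM with the gel, and fell by 4.20 (SE 0.14, edgeR adjusted p 1.9e-08). Gbp2 stood at 54.7, 50.6 and 50.2 CPM in the controls and 3.92, 4.85 and 5.93 CPM with the gel, and Gbp2b at 40.9, 38.8 and 36.1 CPM in the controls and 2.91, 2.78 and 2.86 CPM with the gel. Each gel library was below every control for these genes, where the arms did not overlap for 75.9% of all tested genes. Irgm1, Irgm2 and Igtp fell least of the list: Irgm1 stood at 249, 251 and 249 CPM in the controls and 84.2, 88.7 and 98.3 CPM with the gel, and fell by 1.47, Irgm2 fell by 1.21 and Igtp fell by 1.11. The annotated spans of Irgm2 and Igtp overlap on the same strand, so their values are uncertain. Members of this family, and of the Ifit and Ifi20x clusters, have close copies, and read pairs matching several places were not counted, so single members are uncertain.

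**Figure D4:**
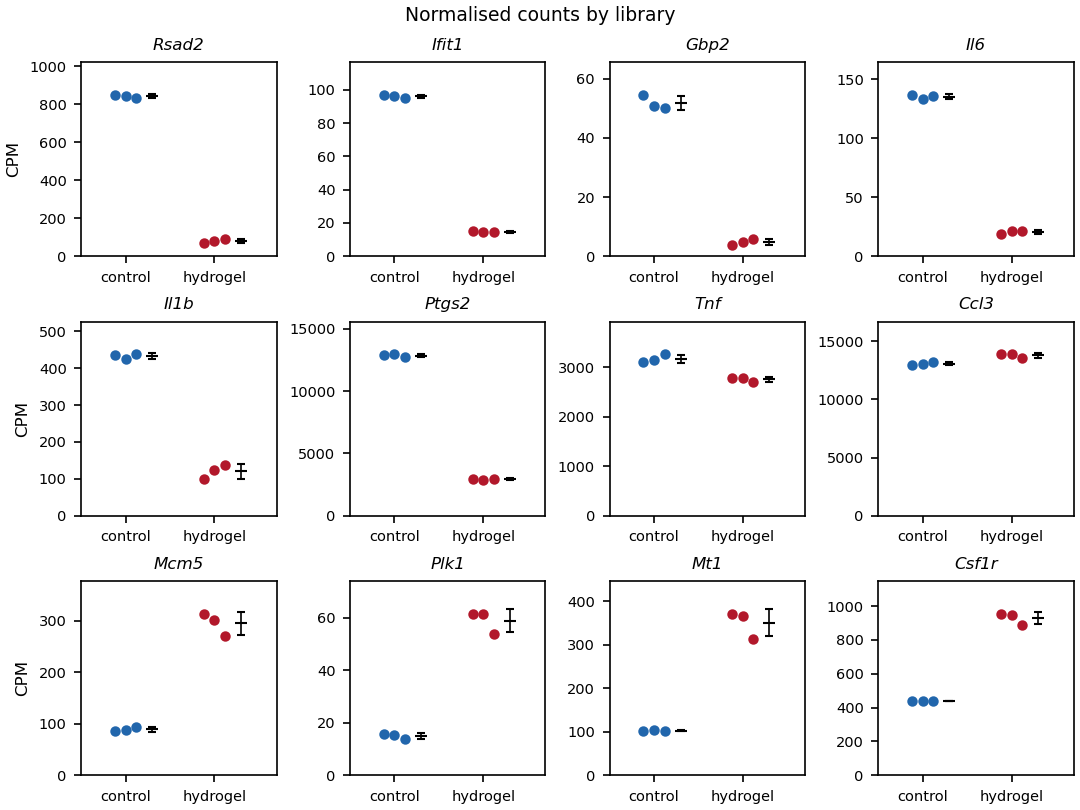
CPM of 12 genes in each library (points), with the mean and SD of each group of 3 as bars beside them and every axis from 0. Rsad2, Ifit1, Gbp2, Il6, Il1b and Ptgs2 are lower in all 3 gel libraries, Mcm5, Plk1, Mt1 and Csf1r are higher in all 3, and Tnf and Ccl3 differ little.

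Outside these lists, the steepest falls included surface receptors of activated leukocytes. Slamf7, a receptor of the SLAM family, stood at 21.6, 21.9 and 20.2 CPM in the controls and 0.448, 0.749 and 0.589 CPM with the gel, and fell by 5.12 (SE 0.14, edgeR adjusted p 6.1e-09). Cd69, an early activation marker, stood at 7.85, 7.77 and 8.48 CPM in the controls and 0.617, 0.573 and 0.841 CPM with the gel, and fell by 3.55. Slfn1, a Schlafen family gene, fell by 3.44 and Trim30c fell by 4.90. The largest rises were of low-level genes. Klf2, a transcription factor of quiescent leukocytes and endothelium, stood at 1.55, 1.3 and 1.93 CPM in the controls and 11.2, 9.25 and 7.48 CPM with the gel, a rise of 2.52 (SE 0.19, edgeR adjusted p 1.1e-06). Ung and Dut, which keep uracil out of DNA, rose by 2.31 and 2.29, and Dut stood at 10.5, 10.9 and 9.73 CPM in the controls and 55.7, 50.9 and 45.2 CPM with the gel. Igf1, a growth factor that macrophages supply to healing tissue, stood at 2.17, 2.08 and 2.64 CPM in the controls and 9.81, 10.3 and 9.54 CPM with the gel, a rise of 2.10.

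Of 27 tested genes of LPS and Toll-like receptor sensing, 17 fell and 8 rose, against 37.8% lower and 34.7% higher over all tested genes. The median log2 difference was -0.52, or -0.30 with the offset, under which 18 fell and 5 rose. Tlr4, the LPS receptor, stood at 28.2, 28.5 and 26.3 CPM in the controls and 9.08, 10 and 9.08 CPM with the gel, and fell by 1.56 (SE 0.08, edgeR adjusted p 1.2e-07), or -1.004 with the offset. Ly96, which encodes the MD-2 partner, fell by 0.55, or -0.28 with the offset. Cd14, the LPS carrier at the surface, rose by 0.45, and by 0.14 with the offset. Tlr3, which sees double-stranded RNA, fell by 2.13 and Tlr1 fell by 1.34. Myd88, the adaptor of the NF-kappaB branch, rose by 0.69, and by 0.39 with the offset. Tlr2 stood at 132, 134 and 132 CPM in the controls and 108, 148 and 169.5 CPM with the gel, with overlapping groups and no call, a log2 difference of 0.10, or -0.0045 with the offset.

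NF-kappaB subunits and feedback genes split, with 16 of 28 lower (57.1%) and 6 higher (21.4%) and a median of -0.32. The shares over all tested genes were 37.8% lower and 34.7% higher. Birc3, a ubiquitin ligase of the TNF receptor complex, stood at 229, 226 and 231 CPM in the controls and 61.3, 70 and 82.3 CPM with the gel, and fell by 1.68. Nfkbiz, a nuclear co-activator needed for Il6, stood at 372, 376 and 380.5 CPM in the controls and 154, 174 and 193 CPM with the gel, and fell by 1.12. Nfkbia, the inhibitor that NF-kappaB induces as feedback, stood at 639, 639 and 644 CPM in the controls and 619.7, 607 and 571 CPM with the gel, a log2 difference of -0.10 that did not pass (edgeR adjusted p 0.16), and was called lower at -0.42 with the offset.

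Among 29 tested cytokines, 16 fell and 7 rose, with 14 of the falls at least 2-fold and a median log2 difference of -0.73. Over all tested genes, 37.8% fell, 34.7% rose and 13.2% fell by at least 2-fold. Il6, Il1a and Il1b were among the falls, while the change of Tnf was small. Il6 stood at 137, 133 and 136 CPM in the controls and 18.9, 21.1 and 21.5 CPM with the gel, and fell by 2.72 (SE 0.07, edgeR adjusted p 3.6e-09). Il1a stood at 188, 189 and 189 CPM in the controls and 27.9, 24.2 and 19.5 CPM with the gel, and fell by 2.99. Il1b stood at 435, 424 and 438 CPM in the controls and 98.7, 125 and 137 CPM with the gel, and fell by 1.84. For all 3, every gel library was below every control, where the arms did not overlap for 75.9% of all tested genes. Il18, which needs caspase-1 for release, fell by 1.81. Il33, an alarmin of the IL-1 family, had 224 counts over the controls and 2 over the gel libraries, a ratio of 105.2 with an exact 95% counting interval of 28.78 to 873.9. Il15 fell by 2.43, Csf2 (GM-CSF) fell by 1.31 and Lif fell by 1.14. Tnf stood at 3108, 3141 and 3263 CPM in the controls and 2772, 2781 and 2698 CPM with the gel, and fell by 0.21 (SE 0.06, edgeR adjusted p 0.0088) with groups that do not overlap, and the value was -0.50 with the offset. Csf3 (G-CSF) stood at 3768, 3723 and 3759 CPM in the controls and 4504, 4260 and 3846 CPM with the gel and did not pass (edgeR adjusted p 0.056), but was called lower at -0.27 with the offset. Among the risers, Ltb, the membrane-bound partner of lymphotoxin, rose by 1.34, or 0.89 with the offset, and Mif by 0.85, or 0.41. Il10 was at or under 0.543 CPM in every library and did not pass, and Il12b had too few counts to test.

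The windows of Il6 and Cxcl2 are shown as a pair because both hold an NF-kappaB word (GGG, any 2 bases, then TTTCC, on either strand, in capitals), while 1 of these genes fell and the other did not pass. They are again the 200 bases before the start site, from RefSeq on GRCm38.p6.
Il6, chr5:30012914-30013113, plus strand: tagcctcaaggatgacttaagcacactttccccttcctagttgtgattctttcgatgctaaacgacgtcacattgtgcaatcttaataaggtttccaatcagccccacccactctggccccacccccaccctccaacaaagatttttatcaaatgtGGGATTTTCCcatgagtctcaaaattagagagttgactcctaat
Cxcl2, chr5:90903699-90903898, plus strand: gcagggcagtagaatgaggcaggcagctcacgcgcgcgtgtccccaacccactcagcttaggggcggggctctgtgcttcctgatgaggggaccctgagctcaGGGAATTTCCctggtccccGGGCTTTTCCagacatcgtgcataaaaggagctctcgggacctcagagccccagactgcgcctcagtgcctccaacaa
This word was in the windows of 1.89% of all symbols and of 5 of the 21 cytokine genes with a window. Cxcl2, a neutrophil chemoattractant, stood at 7756, 8010 and 7757 CPM in the controls and 6899, 8106 and 8472 CPM with the gel, a log2 difference of 0.00 with overlapping groups (edgeR adjusted p 0.98), and was called higher at 0.15 with the offset. A match shows only that the letters are present.

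Chemokine genes went different ways. Ccl5, which draws T cells and monocytes, stood at 873, 895 and 956 CPM in the controls and 237, 218 and 192 CPM with the gel, and fell by 2.07 (SE 0.08, edgeR adjusted p 3.5e-08). Ccl22 stood at 209.9, 206 and 212 CPM in the controls and 62.6, 56.8 and 51.3 CPM with the gel, and fell by 1.88. Ccl2, the main monocyte attractant, stood at 790.4, 776 and 815 CPM in the controls and 402, 502 and 548 CPM with the gel, and fell by 0.71. In contrast, Ccl3 was among the most abundant transcripts of all and stood at 13003, 13019 and 13233 CPM in the controls and 13905, 13889 and 13554 CPM with the gel, a log2 difference of 0.07 that did not pass (edgeR adjusted p 0.27). Ccl4 rose by 0.15, and stood at -0.03, not called, with the offset. Cxcl10, an interferon-induced chemokine, fell by 0.41. Cxcl14 stood at 0.752, 0.579 and 0.881 CPM in the controls and 3.03, 2.07 and 1.68 CPM with the gel, and rose by 1.57, and Cxcl16 rose by 0.40. In all, 6 of 11 tested CC chemokines fell and 1 rose, against 37.8% lower and 34.7% higher over all tested genes. Of 7 tested CXC and CX3C chemokines, 2 rose and 2 fell, and with the offset 4 rose and 2 fell. Of 29 cytokine receptor and SOCS genes, 19 fell and 3 rose; Jak2, the kinase of many of these receptors, stood at 112, 112 and 107 CPM in the controls and 28.5, 26.3 and 25.6 CPM with the gel, and fell by 2.05.

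Genes of inflammasomes and lytic cell death were mostly lower, with 13 of 18 that fell (72.2%) and 1 that rose. Over all tested genes, 37.8% fell and 34.7% rose. Casp1, the protease that matures IL-1beta and IL-18, stood at 109, 108 and 104 CPM in the controls and 36.3, 33.9 and 31.8 CPM with the gel, and fell by 1.66. Casp4, listed in mouse under that symbol for caspase-11, the intracellular LPS sensor, fell by 1.71, Nlrc4 fell by 2.43 and Aim2 fell by 1.03. Nlrp3 stood at 577, 584 and 591 CPM in the controls and 458, 536 and 587 CPM with the gel and did not pass (edgeR adjusted p 0.14), but was called lower at -0.28 with the offset.

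Ptgs2, the inducible cyclooxygenase of prostaglandin synthesis, was among the most abundant transcripts in the controls and stood at 12869, 12980 and 12723 CPM in the controls and 2978, 2879 and 2954 CPM with the gel. It fell by 2.13 (SE 0.06, edgeR adjusted p 6.7e-09), which was many times the spread within either arm. Pla2g4a, which frees arachidonic acid for it, fell by 1.45. Of the 16 tested genes of the pathway, 7 fell (43.8%) and 5 rose (31.2%), near the 37.8% and 34.7% over all tested genes. Nos2, the inducible nitric oxide synthase, stood at 734, 735 and 759 CPM in the controls and 481, 495 and 491 CPM with the gel, and fell by 0.60. Acod1, which makes itaconate, stood at 2120, 2026 and 2082 CPM in the controls and 914, 1127 and 1267 CPM with the gel, and fell by 0.91. Both stayed abundant in the gel arm.

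Genes of alternative activation did not rise as a group, with 9 of 14 that fell (64.3%) and 2 that rose (14.3%). The shares over all tested genes were 37.8% and 34.7%. Arg1 and Mrc1, the usual markers of that state, were both under 1 CPM in every library. Arg1 fell by 1.15 and Mrc1 did not pass (edgeR adjusted p 0.061), at -0.93, or -0.49 with the offset. Trem2, a lipid-sensing receptor of tissue macrophages, stood at 23.7, 24.2 and 23.1 CPM in the controls and 100.2, 87 and 75.3 CPM with the gel, a rise of 1.88 (SE 0.10, edgeR adjusted p 1.3e-07). Cd274 (PD-L1), an interferon-induced inhibitory ligand, stood at 77.6, 77.4 and 74.9 CPM in the controls and 12.9, 13.4 and 13.3 CPM with the gel, and fell by 2.53. The costimulatory genes Cd80, Cd86 and Cd40 fell, with log2 differences of -1.20, -1.42 and -0.47.

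Of 16 macrophage identity genes, 7 rose (43.8%) and 8 fell (50%). Over all tested genes 34.7% rose and 37.8% fell, so nothing is read from the counts of this list. Csf1r, the receptor for the growth factor of the lineage, stood at 439.9, 437 and 439.6 CPM in the controls and 956, 945 and 888 CPM with the gel, a rise of 1.08. Lyz2, lysozyme, stood at 823, 844 and 858 CPM in the controls and 2032, 2388 and 2436 CPM with the gel, a rise of 1.44. The high-affinity IgG receptor gene Fcgr1 stood at 93.5, 86.2 and 89.5 CPM in the controls and 28.6, 32 and 32.3 CPM with the gel, and fell by 1.53, and Adgre1 (F4/80) fell by 1.60. Of 27 genes for Fc and scavenger receptors and phagocytosis, 15 fell (55.6%) and 6 rose (22.2%). The C-type lectin Clec4e (Mincle) stood at 1839, 1861 and 1823 CPM in the controls and 496, 595 and 637 CPM with the gel, and fell by 1.68.

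DNA replication genes rose nearly throughout, with 36 of 40 higher and 1 lower and a median log2 difference of 0.92 (1.03 with the offset). Over all tested genes, 34.7% were higher and 37.8% lower. The windows of a helicase and a licensing gene are shown because the E2F word, which was added to the search after the data were seen, recurred in this list. The runs are as above, with matches to TTTNNCGC on either strand in capitals, and the 2 matches of Mcm5 overlap.
Mcm5, chr8:75109309-75109508, plus strand: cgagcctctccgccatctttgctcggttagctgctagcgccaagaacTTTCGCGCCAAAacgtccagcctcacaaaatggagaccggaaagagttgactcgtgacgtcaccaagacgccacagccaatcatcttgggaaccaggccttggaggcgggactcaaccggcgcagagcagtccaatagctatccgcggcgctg
Cdc6, chr11:98907951-98908150, plus strand: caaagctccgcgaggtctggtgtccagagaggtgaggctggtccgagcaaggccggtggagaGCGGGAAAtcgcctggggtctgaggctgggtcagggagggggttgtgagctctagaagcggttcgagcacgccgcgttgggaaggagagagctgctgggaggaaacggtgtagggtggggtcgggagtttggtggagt
The word was in the windows of 16 of the 34 replication genes with a window (47.1%), of 10.1% of the tested genes and of 5.93% of all symbols. Mcm5, a subunit of the replicative helicase, stood at 84.9, 87.8 and 93.4 CPM in the controls and 314, 301 and 271 CPM with the gel, a rise of 1.73 (SE 0.07, edgeR adjusted p 3.9e-08). Mcm2, of the same helicase, stood at 74.2, 82.1 and 78.3 CPM in the controls and 258, 237 and 224 CPM with the gel, a rise of 1.61. Cdc6, which loads it onto origins, stood at 9.9, 10.1 and 10.4 CPM in the controls and 27.5, 31.8 and 37.1 CPM with the gel, a rise of 1.67. E2f1, a transcription factor of replication genes, rose by 1.45 and Rrm2, which makes deoxynucleotides, by 1.36. Pcna, the sliding clamp, rose by 0.79. Pola1, which fell by 0.25, was called higher at 0.38 with the offset.

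Of 33 mitosis genes, 22 rose and 3 fell, against 34.7% higher and 37.8% lower over all tested genes, and with the offset 31 rose. Plk1, the mitotic kinase, stood at 15.8, 15.3 and 13.8 CPM in the controls and 61.7, 61.5 and 53.9 CPM with the gel, a rise of 1.98 (SE 0.08, edgeR adjusted p 4.0e-08). Ube2c, which marks mitotic proteins for destruction, stood at 37.8, 38.4 and 34.9 CPM in the controls and 141, 139 and 136 CPM with the gel, a rise of 1.91. Aurka rose by 1.55, Birc5 (survivin) by 1.91 and Cdk1 by 1.16. Mki67, the usual proliferation marker, stood at 123, 116 and 117 CPM in the controls and 129, 103 and 100.2 CPM with the gel, with overlapping groups and no call (edgeR adjusted p 0.34), and was called higher at 0.32 with the offset. In bulk RNA, more cells in cycle and more transcript per cell cannot be told apart.

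Myc, and genes of ribosomes and mitochondria, were also higher. Myc stood at 21.1, 20.1 and 19 CPM in the controls and 83.3, 79.2 and 79.3 CPM with the gel, a rise of 2.01 (SE 0.07, edgeR adjusted p 1.9e-08). Of 29 ribosome biogenesis genes, 19 rose and 5 fell, and with the offset 25 rose and 1 fell. The shares over all tested genes were 34.7% higher and 37.8% lower. Nop2, a ribosomal RNA methyltransferase, stood at 119, 118 and 118 CPM in the controls and 291, 292 and 288 CPM with the gel, a rise of 1.29. Srm, which makes the polyamine spermidine, stood at 82.5, 77.6 and 78.2 CPM in the controls and 303, 273 and 225 CPM with the gel, a rise of 1.75. Of 75 cytosolic ribosomal protein genes, 65 rose and 3 fell, with a median of 0.79 and of 0.51 with the offset. Of 61 nuclear-encoded respiratory chain genes, 58 rose and 1 fell, with a median of 0.89 and of 0.66 with the offset. The one that fell was Ndufs1, a subunit of complex I, which fell by 0.61, or -0.26 with the offset. Atp5b, a catalytic subunit of ATP synthase, stood at 1063, 1066 and 1072 CPM in the controls and 2126, 2095 and 1958 CPM with the gel, a rise of 0.95. Cyc1, cytochrome c1, stood at 65.2, 69.9 and 69.1 CPM in the controls and 190.0, 173 and 149 CPM with the gel, a rise of 1.33. The offset moved the medians of these last lists further than that of the replication list.

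Oxidant defence genes mostly rose, with exceptions. Of 32 NRF2 target and thiol defence genes, 20 rose (62.5%) and 6 fell (18.8%), against 34.7% and 37.8% over all tested genes. Gpx1, glutathione peroxidase, stood at 105, 108 and 108 CPM in the controls and 373, 345 and 278 CPM with the gel, a rise of 1.64 (SE 0.10, edgeR adjusted p 2.4e-07). Sod1, the cytosolic superoxide dismutase, stood at 153, 152 and 159 CPM in the controls and 364, 320.5 and 272 CPM with the gel, a rise of 1.04. Slc7a11, the cystine importer and an NRF2 target, went the other way and stood at 739, 737 and 713 CPM in the controls and 292, 263 and 275 CPM with the gel, and fell by 1.40, or -0.63 with the offset. Hmox1, haem oxygenase, stood at 1574, 1545 and 1600 CPM in the controls and 1950, 2059 and 2099 CPM with the gel, a rise of 0.37 that was not called with the offset. Nqo1 and Hspa1a had too few counts to test. Cybb, the catalytic subunit of the phagocyte NADPH oxidase, stood at 1145, 1158 and 1124 CPM in the controls and 588, 596 and 654 CPM with the gel, and fell by 0.90, or -0.59 with the offset.

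Metallothioneins bind metal ions, and their genes respond to zinc, cadmium and silver. Mt1 stood at 102, 103 and 101 CPM in the controls and 372, 367 and 314 CPM with the gel, a rise of 1.78 (SE 0.07, edgeR adjusted p 3.8e-08). Slc30a1, the zinc exporter that responds to the same metal sensor, stood at 6.81, 6.9 and 7.39 CPM in the controls and 18.6, 22.9 and 23.5 CPM with the gel, a rise of 1.63. Mt2 was low, at 1.92, 3.09 and 2.48 CPM in the controls and 3.81, 3.75 and 3.03 CPM with the gel, a rise of 0.50 (edgeR adjusted p 0.032) that was not called with the offset. The list as a whole did not share a direction, with 7 of 19 that rose (36.8%) and 9 that fell (47.4%), against 34.7% and 37.8% over all tested genes. Slc39a10, a zinc importer, stood at 138, 141 and 135 CPM in the controls and 39.3, 32.7 and 36.3 CPM with the gel, and fell by 1.93. The metal response word first searched, TGCNCNC, was in 13 of 16 windows of the list but in 53.6% of all symbols. A narrower word, TGCACNC, chosen after that share was seen, was in 8 of 16 windows and 14.2% of all symbols.

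Matrix genes of macrophages were mostly lower. Of 16 matrix protease and matrix genes, 12 fell (75%) and 3 rose (18.8%), against 37.8% and 34.7% over all tested genes. Spp1, osteopontin, stood at 19017, 18400 and 18732 CPM in the controls and 9122, 8963 and 8848 CPM with the gel, and fell by 1.06. Mmp13, a collagenase, stood at 28.1, 29.8 and 26.8 CPM in the controls and 5.55, 5.07 and 5.51 CPM with the gel, and fell by 2.39. Vegfa, the angiogenic growth factor, stood at 94.6, 93.1 and 98.7 CPM in the controls and 42.8, 47 and 52.6 CPM with the gel, and fell by 1.01 (SE 0.08, edgeR adjusted p 1.3e-06). Hbegf, an EGF receptor ligand, fell by 1.26, while Tgfb1 rose by 0.52. Among hypoxia response genes, 12 of 21 fell and 5 rose, and Hif1a fell by 1.04, or -0.50 with the offset. Glycolysis genes did not fall with them, with 13 of 23 that rose and 6 that fell; Pfkfb3, an activator of the pathway, fell by 1.26, and Slc2a3, a glucose transporter, rose by 1.01.

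Lysosomal genes had 21 of 42 higher and 13 lower. Some other lists lay near the shares over all tested genes, 34.7% higher and 37.8% lower, and nothing is read from their counts. Cholesterol and fatty acid synthesis genes had 11 of 32 higher and 11 lower, and genes of protein folding in the endoplasmic reticulum 7 of 20 higher and 9 lower. Heat shock genes had 7 of 18 higher and 8 lower. Ddit3 (CHOP), a marker of unresolved stress, stood at 26.7, 25.3 and 27.4 CPM in the controls and 15.7, 19.8 and 23.3 CPM with the gel, and fell by 0.42 (edgeR adjusted p 0.0092).

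**Figure D5:**
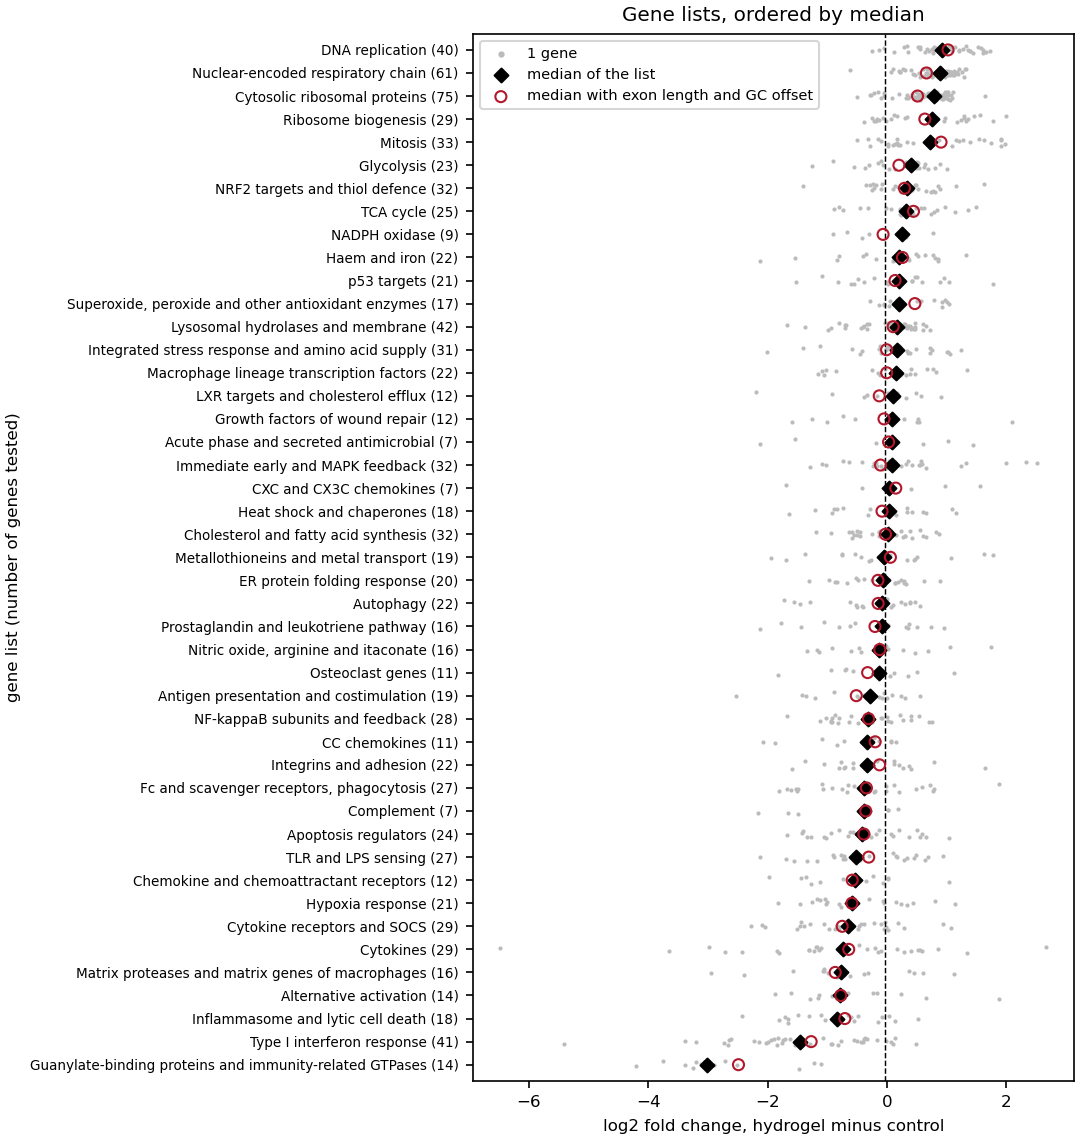
Log2 fold change (hydrogel minus control) of the genes in each list (grey points), the list's median (black diamond) and its median with the exon length and GC offset (red circle), ordered by median, with the median of all tested genes as a dashed line. Guanylate-binding proteins, at -3.02, and interferon response genes, at -1.45, lie lowest, and DNA replication, at 0.92, lies highest; for several lists near the dashed line, NADPH oxidase and heat shock genes among them, the circle lies on the other side of it from the diamond.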

How the data were processed

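Members and gene lists were chosen with earlier results of these data known. The authors' deposited files give counts of read pairs per gene symbol, without normalisation. Per the file headers, featureCounts counted pairs over exons of the GENCODE M25 annotation of GRCm38.p6 without regard to strand, with no option set to count pairs that match several places or genes, so overlapping and antisense partners cannot be told apart. Per the submitters' processing notes, reads passed Trim Galore 0.6.10, FastQC 0.11.9, HISAT2 2.2.1 and SAMtools 1.9, and featureCounts was version 2.0.6. The filter behind the alignments is not given in the sources used here.

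From these counts, edgeR 4.0.16 (R 4.3.3) fitted the 6 libraries alone with TMM scaling, a minimum count of 10 and a minimum total of 15, and robust quasi-likelihood tests with 4 residual degrees of freedom. The fit took a common spread per gene over both arms, so SEs and p-values describe neither arm's own spread. Each SE was the absolute log2 difference divided by the square root of the F statistic. P-values were two-sided and adjusted by Benjamini-Hochberg over the 12972 genes tested. Log2 differences are hydrogel minus control, and CPM values are TMM-scaled. Counts per library were 17932839 to 23955760. The code was tested on simulated data. Named genes were up to 12 per direction by size, if the arms did not overlap and the higher arm averaged 5 CPM or more, up to 6 per list by adjusted p, and a fixed panel of inflammatory and stress genes. Genes named besides, chosen after their values were seen, are Adgre1, Cd14, Cdc6, Cdk1, Ddx58, Ifih1, Ifitm3, Ifnb1, Igtp, Il15, Il33, Irf7, Irf9, Irgm1, Irgm2, Ltb, Ly96, Mif, Mki67, Myd88, Ndufs1, Pcna, Pola1, Stat2 and Tlr2. Lists are described by counts and medians, with no set test. Alternatives were other scaling, filters, DESeq2 1.42.0, limma-voom (limma 3.58.1), summed controls, a replicate block, a test against 1.5-fold, each library left out, and, added after seeing the data, an exon length and GC offset. Of the tested genes, 98.3% had a GC value. Promoter words were searched on both strands of RefSeq windows.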

Additional observations from a re-analysis of the deposited data

How the results depend on the processing

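The count of genes past the threshold stayed within 1.5 times of 9409 under RLE size factors (9423), total count scaling (9425), no filter on low counts (10075), a minimum count of 50 (8270), DESeq2 (8942), limma-voom with quality weights (10811), the 3 controls summed into 1 library (7275) and the offset (9023). The test against a 1.5-fold change called 4182 genes, 1795 higher and 2387 lower, since it asks for a larger change. Without the filter, 1639 genes were higher by at least 2-fold. With the exon length and GC offset, 1805 genes passed at 2-fold or more, 1132 of them lower; the cause was not tested. Leaving out 1 library at a time gave 8542 to 9787 calls, with 4099 to 4899 higher and 4256 to 4914 lower, and 2605 to 2978 calls at 2-fold or more, with 883 to 1393 higher and 1538 to 1722 lower. Nothing in the labels says that a replicate number marks a shared culture, so the numbers were not taken as pairs. Deviations of same-numbered libraries had correlations of -0.005, 0.013 and -0.019. These cannot show whether libraries were paired, because the controls differ by little more than counting noise. A replicate block gave 9291 calls, 4437 higher and 4854 lower, and 2719 at 2-fold or more.

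Cxcl2, at 0.00, was positive under RLE size factors (0.035), no filter (0.1069), DESeq2 (0.035), limma-voom (0.0386), and the offset (0.1495), and ran from -0.0113 to 0.0897 with 1 library left out, positive without control replicate 2 (0.0128), hydrogel replicate 1 (0.0897) or hydrogel replicate 2 (0.0113). Without the filter, Nfkbia was 0.0119 and Mki67 0.0075, and Mki67 ran from -0.2125 to 0.025 with 1 library left out, positive without hydrogel replicate 3. With the offset, the log2 difference changed sign for Ccl4 (-0.0308), Npc1 (0.1739), Itga4 (0.0391), Neat1 (0.217), Csf3 (-0.2651), Mki67 (0.3179), Tlr2 (-0.0045) and Pola1 (0.3843). The cause of these changes of sign was not tested. Low counts limited Ifnb1, Il10 and Mrc1, which stood near or under 1 CPM.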

Other observations

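Other gene groups of the same comparison also moved in parts. Of 31 tested genes of the integrated stress response and amino acid supply, 15 rose and 6 fell, against 34.7% higher and 37.8% lower over all tested genes. Shmt2, a mitochondrial enzyme of folate and serine metabolism, stood at 239, 224 and 241 CPM in the controls and 618, 559 and 494 CPM with the gel, and rose by 1.25. Slc7a5, a carrier of large neutral amino acids, stood at 158, 153 and 151 CPM in the controls and 332, 313 and 282 CPM with the gel, and rose by 1.01. With the exon length and GC offset, 10 of this list rose and 9 fell, so its balance depends on that setting. Of 24 tested apoptosis regulators, 13 fell (54.2%) and 6 rose (25%). Apaf1, the scaffold that activates caspase-9 after cytochrome c release, stood at 119, 125 and 120.2 CPM in the controls and 43.4, 44 and 47.7 CPM with the gel, and fell by 1.43. Trp53 itself stood at 116, 116 and 119 CPM in the controls and 252, 229.7 and 199 CPM with the gel, and rose by 0.96. Of 21 tested p53 targets, 10 rose (47.6%) and 7 fell (33.3%), with 2 of each at 2-fold or more. With the offset 8 rose and 8 fell, and nothing is read from these counts. Among those that fell, Fas stood at 8.77, 8.74 and 8.56 CPM in the controls and 2.86, 2.78 and 3.41 CPM with the gel, and fell by 1.52.

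Of 22 tested haem and iron genes, 11 rose and 5 fell, against 34.7% higher and 37.8% lower over all tested genes. Lcn2, which binds bacterial siderophores, stood at 323, 317 and 327 CPM in the controls and 106, 113 and 113 CPM with the gel, and fell by 1.54, and Cp, the copper ferroxidase ceruloplasmin, stood at 33.1, 32.3 and 31.1 CPM in the controls and 7.51, 8.02 and 6.52 CPM with the gel, and fell by 2.13. Of 22 tested integrin and adhesion genes, 13 fell and 6 rose. Itgal, the alpha chain of LFA-1, stood at 120.3, 121 and 115 CPM in the controls and 55.7, 56.8 and 59.8 CPM with the gel, and fell by 1.05. Of 25 genes of the TCA cycle, 17 rose and 5 fell, and Idh2 stood at 43.6, 44.5 and 44.9 CPM in the controls and 121, 115 and 106 CPM with the gel, and rose by 1.36.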
